A study of Mus musculus with 23 samples.

Results

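Lungs of mice that had inhaled bacterial lipopolysaccharide (LPS) and been given recombinant human alpha1-antitrypsin (recAAT) were compared by RNA-seq with lungs of mice that had breathed clean air. The members are the 5 LPS+recAAT libraries, replicates 6101 to 6105, and they were set against the 3 air libraries, replicates 2101, 2102 and 2105, out of 23 libraries in all, with 1 library per mouse. All mice were male Balb/c, and age is not given in the sources used here. LPS+recAAT mice inhaled aerosolized LPS at 0.21 mg/ml, with 1 session of 10 min daily over 3 days. Each session was followed after 1 h by an intraperitoneal injection of recAAT at 4 mg/kg, and the lungs were collected 6 h after the last injection. Mice given LPS without AAT (replicates 1101 to 1105, n = 5) inhaled the same aerosol and are used for values set side by side. Air mice followed the same schedule with clean air; the labels name saline as the injection without AAT but do not say outright that air mice received it. Mice given LPS and the native (LPS+nAAT, n = 5) or oxidized (LPS+oxAAT, n = 5) form of AAT are the remaining groups. Their libraries enter every model, through the filter on low counts and the shared estimate of the spread, and LPS+oxAAT also through the library set described below; no result for them is given. No group given recAAT without LPS was analysed here, so what LPS and what recAAT contributed cannot be told apart in this comparison.

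LPS, a component of the outer membrane of Gram-negative bacteria, is carried by the binding protein LBP and by CD14 to the receptor TLR4, which signals through adaptors such as MyD88 to the transcription factor NF-kB. In the lung this leads macrophages and epithelial cells to make chemokines that draw in neutrophils, cytokines, acute phase proteins and, in the same cells, inhibitors that limit the response. Alpha1-antitrypsin is a plasma serine protease inhibitor made mainly by the liver, and it is known for protecting the lung from neutrophil elastase.

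Depth ran from 14.8 to 47.9 M gene counts per library in LPS+recAAT and from 26.5 to 30.4 M in air. A property of the libraries moved with the groups. Reads of mt-Nd6, a mitochondrial gene that lies on the strand opposite to its neighbours, were 3.39% to 4.50% of those of mt-Nd5 in all 5 LPS+recAAT libraries and in LPS+oxAAT replicates 5103, 5104 and 5105, and 0.338% to 1.14% in the other 15 libraries, all 3 air libraries among them. These are called the high-ratio and the low-ratio library set here; the labels name no such sets. Because every LPS+recAAT library is in the high-ratio set and every air library in the low-ratio set, the set and the treatment are told apart only through the LPS+oxAAT libraries, which lie in both. Each result is therefore given from a model without the set and, where it matters, with the set as a term. The tissue label fitted the data: of genes that mark lung, Sftpc of alveolar type 2 cells had 11728 to 16525 CPM in LPS+recAAT lungs and 12346 to 18741 CPM in air lungs, and Ager of alveolar type 1 cells had 1809.6 to 2699.6 CPM in LPS+recAAT lungs and 2584 to 3665 CPM in air lungs.

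Against air, the LPS+recAAT lung showed rises in chemokines, acute phase proteins and cell division genes, while clock genes moved in both directions. Of 17148 genes tested with edgeR's quasi-likelihood test, 1171 (6.83%) differed between LPS+recAAT and air at a Benjamini-Hochberg adjusted p under 0.05, which is what "passed" means below. Of these, 722 (4.21% of genes tested) were higher and 449 (2.62%) lower in LPS+recAAT. The changes were unequal in size: 346 of the higher genes and 63 of the lower ones changed at least 2-fold. The median log2 fold change over all genes was -0.0043. The LPS+recAAT and air lungs did not overlap in CPM at 2757 genes tested (16.1%), and at 1101 of the 1171 that passed. Genes chosen by size had to meet this condition, so their lack of overlap follows from the choice. Leaving out air 2105 left 762 calls, and the number of lower genes was 296 without LPS+recAAT 6104, 258 without air 2101 and 243 without air 2105.

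With the library set as a term, 278 genes (1.62%) passed, 222 higher (1.29%) and 56 lower (0.327%). This number rested on few LPS+oxAAT libraries and was 134 without LPS+oxAAT 5102. In both models 249 genes passed, all in the same direction, 202 of them higher and 47 lower. These are 28% of the higher calls and 10.5% of the lower calls made without the term. The set term itself passed at 93 genes (0.542%), 84 higher (0.49%) and 9 lower (0.0525%) in the high-ratio set. Of those 84, 47.6% have exons that overlap an exon on the other strand, against 30.3% of all genes tested. Among genes called between LPS+recAAT and air, that share was 27.3% of the higher and 26.5% of the lower ones. What the set contributed to single genes was not tested beyond the model with the term.

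**Figure D1:**
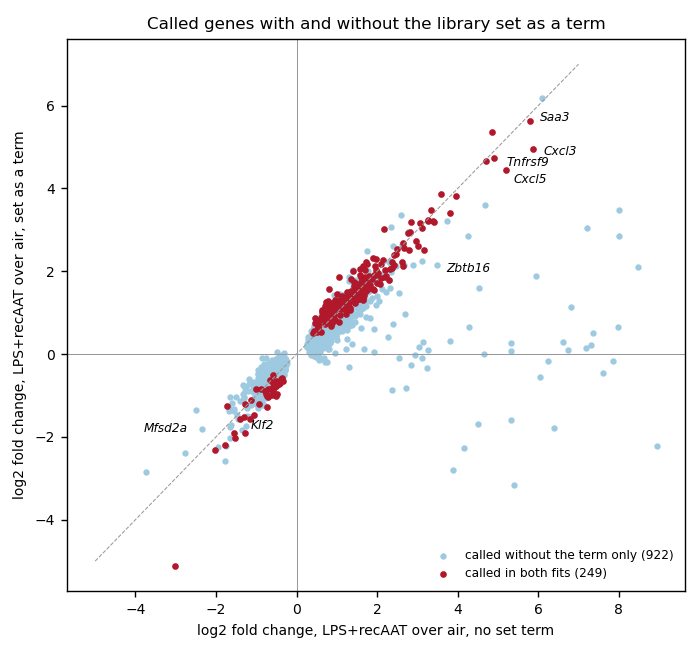
Log2 fold change of LPS+recAAT over air for the 1171 genes that passed, without (x axis) and with (y axis) the library set as a term; each point is a gene, red where it passed in both models (249) and light blue where it passed only without the term (922), and the dashed line marks equal values. Saa3, Cxcl3 and Tnfrsf9 lie near the line, whereas light blue points at the right with values near or below 0 on the y axis are genes whose rise was not seen once the set was a term.

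Chemokines that draw neutrophils through the receptor CXCR2 held the largest rise among genes chosen by size. The list of neutrophil-attracting CXC chemokines also holds Cxcr2 and the platelet chemokine Pf4, so not every member is a ligand of this receptor. Of its 8 tested genes, 5 were higher and the other 3 did not pass, with a median log2 fold change of 1.49. With the set as a term 3 were higher. Values below are in the order of the replicate numbers. Cxcl3, a CXCR2 ligand (chr5:90786103-90789600, GRCm38), had 43.6, 81.4, 87.5, 40.5 and 96.9 CPM in LPS+recAAT lungs, against 1.77, 1.1 and 0.718 CPM in air lungs. Each LPS+recAAT lung lay far above the highest air lung. Cxcl3 rose by 5.87 ± 0.56 (SE, adjusted p = 5.26e-07) on the log2 scale, and by 4.94 with the set as a term (adjusted p = 0.000379). Cxcl5, which epithelial cells make in the inflamed lung (chr5:90759360-90761624), had 32.7, 10.8, 27.1, 13.9 and 40.2 CPM in LPS+recAAT lungs, against 0.902, 0.486 and 0.643 CPM in air lungs. The 5 LPS+recAAT lungs were uneven, with 6102 and 6104 low among them, yet none overlapped air. Cxcl5 rose by 5.21 ± 0.53 (SE, adjusted p = 5.53e-07), and by 4.46 with the set as a term (adjusted p = 0.000604).

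Cxcl1, the mouse chemokine known as KC, had 22, 14.4, 16.1, 11.9 and 17.8 CPM in LPS+recAAT lungs, against 4.22, 2.37 and 2.65 CPM in air lungs. The groups did not overlap, and Cxcl1 rose by 2.42 ± 0.28 (SE, adjusted p = 1.47e-06), and by 2.14 with the set as a term (adjusted p = 0.00324). Cxcl2, known as MIP-2, had 8.44, 7.91, 9.75, 6.95 and 11.9 CPM in LPS+recAAT lungs, against 2.13, 1.85 and 2.23 CPM in air lungs. Cxcl2 rose by 2.13 ± 0.32 (SE, adjusted p = 6.41e-05) and gave 1.56 with the set as a term (adjusted p = 0.0797), so it passed only without the term. Pf4, a platelet chemokine, rose by 0.86 ± 0.20 (SE, adjusted p = 0.00798); it did not pass with the set as a term (0.182) or without air 2101 (adjusted p = 0.0847). Cxcl15, a chemokine of lung epithelium, had 1383 ± 222 CPM in LPS+recAAT lungs, against 1482 ± 318 CPM in air lungs, a log2 fold change of -0.10 ± 0.16 (SE, adjusted p = 0.823).

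Promoter sequences of a pair of these chemokines are shown because both hold the same NF-kB type motif close to the start of transcription. They are the 250 bases before the start, 5′ to 3′ on the strand of the gene, from RefSeq (GRCm38.p6), in lower case with the motif searched, GGGA, then any base, then TTTCC, on either strand, in capitals. Cxcl3 lies at chr5:90785851-90786100, plus strand, and Cxcl1 at chr5:90890995-90891244, plus strand.
Cxcl3: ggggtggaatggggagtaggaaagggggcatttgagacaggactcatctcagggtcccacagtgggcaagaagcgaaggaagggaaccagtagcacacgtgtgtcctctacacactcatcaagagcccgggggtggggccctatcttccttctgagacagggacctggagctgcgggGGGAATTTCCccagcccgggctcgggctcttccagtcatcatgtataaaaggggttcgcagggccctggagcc
Cxcl1: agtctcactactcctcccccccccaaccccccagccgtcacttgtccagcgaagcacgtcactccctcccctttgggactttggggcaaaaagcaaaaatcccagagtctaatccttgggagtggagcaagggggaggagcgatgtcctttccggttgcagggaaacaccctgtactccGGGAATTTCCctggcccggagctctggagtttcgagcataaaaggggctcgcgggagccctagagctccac

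The motif begins 73 bases before the start in Cxcl3 and 71 bases before it in Cxcl1. Of the 5 chemokines of the list that passed, 4 matched a RefSeq promoter, and 3 of these 4 hold the motif, against 0.356% of 32851 mouse promoters of the same length. Cxcl5 had no entry. Of 13 matched promoters of acute phase genes that passed, 0 hold these letters. A match is a description of the letters, not of binding.

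Chemokines for lymphocytes and monocytes were higher too. All 3 ligands of CXCR3, the receptor of activated T cells, passed without the set and 1 with it. Cxcl10, the interferon-induced ligand, had 6.69, 5.26, 8.02, 6.75 and 8.99 CPM in LPS+recAAT lungs, against 1.37, 1.26 and 1.36 CPM in air lungs. No air lung reached the LPS+recAAT range, and Cxcl10 rose by 2.42 ± 0.23 (SE, adjusted p = 1.09e-07), and by 2.39 with the set as a term (adjusted p = 0.000165). Cxcl9 rose by 2.30 ± 0.43 (SE, adjusted p = 0.000972) and gave 1.79 with the set as a term (adjusted p = 0.17). Cxcl11 was near the detection limit, with 0.412, 0.36, 0.607, 0.81 and 0.534 CPM in LPS+recAAT lungs, against 0.0361, 0 and 0.0756 CPM in air lungs. It passed as higher (adjusted p = 0.00641), but not without air 2102 (adjusted p = 0.0522) or with the set as a term (0.199). Exons of Cxcl10 and Cxcl11 overlap a gene on the other strand.

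Of 16 tested CC chemokines, 11 were higher and the other 5 did not pass (median log2 fold change 1.74); 6 were higher with the set as a term. Ccl9, a chemokine of myeloid cells, had 203, 239, 292, 258 and 321 CPM in LPS+recAAT lungs, against 26.1, 32.8 and 39 CPM in air lungs. Ccl9 rose by 3.01 ± 0.20 (SE, adjusted p = 2.48e-10), and by 2.62 with the set as a term (adjusted p = 1.51e-06). Ccl17 and Ccl22, ligands of CCR4 that dendritic cells and macrophages make, moved together. Ccl17 had 7.71 ± 2.25 CPM in LPS+recAAT lungs, against 1.79 ± 0.605 CPM in air lungs (SD, n = 5 and 3), and Ccl22 had 13.9 ± 1.93 CPM in LPS+recAAT lungs, against 4.65 ± 1.31 CPM in air lungs. They rose by 2.10 ± 0.25 (SE, adjusted p = 2.04e-06) and by 1.58 ± 0.16 (SE, adjusted p = 2.31e-07), and both passed with the set as a term (0.00488 and 0.00141). Ccl2, the monocyte chemokine, had 4.03, 2.39, 2.33, 3.98 and 3.24 CPM in LPS+recAAT lungs, against 0.289, 0.519 and 0.567 CPM in air lungs. All 5 LPS+recAAT values were above air, and Ccl2 rose by 2.79 ± 0.42 (SE, adjusted p = 6.41e-05), and by 2.51 with the set as a term (adjusted p = 0.0228). Ccl20 and Ccl3 were the others that passed in both models (2.76 and 2.36). Ccl5, a T cell chemokine, and Ccl11, the eosinophil chemokine eotaxin, had log2 fold changes of 0.16 and -0.38 and did not pass. Cxcl16 rose by 0.39 ± 0.12 (SE, adjusted p = 0.0442), a call lost without LPS+recAAT 6102, 6103, 6104 or 6105 or air 2101 or 2102 (adjusted p 0.0581 to 0.219) and with the set as a term; it was the 1 call among 5 other CXC and CX3C chemokines.

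Of 12 tested inflammatory cytokines, 4 were higher, 3 of them also with the set as a term, and the others did not pass. Tnf had 7.52, 5.33, 4.95, 5.33 and 6.38 CPM in LPS+recAAT lungs, against 2.09, 1.62 and 1.74 CPM in air lungs. Every LPS+recAAT lung was above every air lung, and Tnf rose by 1.71 ± 0.26 (SE, adjusted p = 8.02e-05), and by 1.87 with the set as a term (adjusted p = 0.00854). Csf2, which encodes the growth factor GM-CSF, rose by 1.43 ± 0.25 (SE, adjusted p = 0.000365), and Csf1, the macrophage growth factor, by 0.72 ± 0.10 (SE, adjusted p = 2.45e-05); with the set as a term their adjusted p-values were 0.0177 and 0.0113. Il1b had 54.1, 50.3, 54.8, 50.7 and 103 CPM in LPS+recAAT lungs, against 32, 21.3 and 21.1 CPM in air lungs. LPS+recAAT 6105 stood far above the other 4 and the groups did not overlap. Il1b rose by 1.34 ± 0.24 (SE, adjusted p = 0.000528), and gave 1.33 with the set as a term (adjusted p = 0.0779). Il6 had 0.267, 0.0981, 0.0933, 0.337 and 0.213 CPM in LPS+recAAT lungs, against 0.289, 0.162 and 0.151 CPM in air lungs. These are a few reads per library and the groups overlapped, so a change of Il6 was not detectable at this depth (log2 fold change -0.01 ± 0.52 (SE, adjusted p = 0.993)).

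In the receptor complex for LPS, the co-receptor moved and the receptor did not pass. Cd14 had 121, 135, 161, 133 and 186 CPM in LPS+recAAT lungs, against 25.3, 31.9 and 28.2 CPM in air lungs. That is a rise of 2.37 ± 0.16 (SE, adjusted p = 2.93e-10), and of 2.22 with the set as a term (adjusted p = 2.54e-06). Tlr4 had 33.2 ± 3.44 CPM in LPS+recAAT lungs, against 31.7 ± 2.97 CPM in air lungs (log2 fold change 0.06 ± 0.27 (SE, adjusted p = 0.942)). Tlr2, the receptor for bacterial lipoproteins, rose by 0.77 ± 0.10 (SE, adjusted p = 1.79e-05) and gave 0.57 with the set as a term (adjusted p = 0.0639). Lbp rose by 0.42 ± 0.12 (SE, adjusted p = 0.0305); its call was lost without LPS+recAAT 6103 or 6104 or air 2101 or 2102 (adjusted p 0.0524 to 0.198) and with the set as a term (0.329). These were the 3 calls among 14 genes of the list, where 6.83% of all genes tested passed. The median log2 fold change of the list was -0.0009. Myd88 and the other adaptors and kinases did not pass.

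Some inhibitors of NF-kB and 1 of its subunits rose. Of 19 genes, 9 were higher, 7 were higher with the set as a term, and the median log2 fold change was 0.41. Tnip3, a partner of the inhibitor A20, had 4.27, 5.43, 4.99, 4.12 and 6.21 CPM in LPS+recAAT lungs, against 1.19, 1.26 and 1.13 CPM in air lungs. It was higher in each LPS+recAAT lung than in any air lung. Tnip3 rose by 2.07 ± 0.26 (SE, adjusted p = 5.43e-06), and by 1.69 with the set as a term (adjusted p = 0.0134). Nfkbie, which encodes the inhibitor IkB epsilon, had 25.7 ± 2.68 CPM in LPS+recAAT lungs, against 15.1 ± 0.758 CPM in air lungs, a rise of 0.77 ± 0.11 (SE, adjusted p = 3.37e-05). Birc3, an inhibitor of cell death and ubiquitin ligase, rose by 0.52 ± 0.09 (SE, adjusted p = 0.000258). Nfkbiz, a nuclear IkB protein, and Tnfaip3, which encodes A20 itself, rose by 0.88 ± 0.18 (SE, adjusted p = 0.00235) and 0.33 ± 0.08 (SE, adjusted p = 0.0137). With the set as a term their adjusted p-values were 0.0448 and 0.231, so Tnfaip3 passed only without the term. Nfkb2, the subunit p100/p52, rose by 0.54 ± 0.10 (SE, adjusted p = 0.000578), and by 0.73 with the set as a term (adjusted p = 0.00665); its exons overlap a gene on the other strand. The subunits Rela, Rel and Nfkb1 had log2 fold changes of -0.25, -0.03 and 0.09 and did not pass.

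Tnfrsf9, which encodes the costimulatory receptor 4-1BB (chr4:150914562-150946102), had the smallest adjusted p of all genes tested. It had 31.7, 29.6, 40.1, 33.5 and 44.9 CPM in LPS+recAAT lungs, against 1.55, 1.39 and 0.605 CPM in air lungs. Tnfrsf9 rose by 4.91 ± 0.24 (SE, adjusted p = 7.61e-13), and by 4.74 with the set as a term (adjusted p = 9.5e-10). Its ligand Tnfsf9 had a log2 fold change of -0.39 ± 0.34 (SE, adjusted p = 0.611). Fas, the death receptor, had 35.8, 33.7, 39, 43.4 and 38.1 CPM in LPS+recAAT lungs, against 24.3, 24.8 and 26.2 CPM in air lungs. Fas rose by 0.60 ± 0.10 (SE, adjusted p = 0.000431) and gave 0.36 with the set as a term (adjusted p = 0.293). Tnfrsf21 rose by 0.55 ± 0.14 (SE, adjusted p = 0.0159), a call lost without LPS+recAAT 6102 or air 2101 or 2105 (adjusted p 0.0502 to 0.103) and with the set as a term (0.803). The other 10 of 13 genes of this family did not pass. Of all genes tested 6.83% passed.

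**Figure D2:**
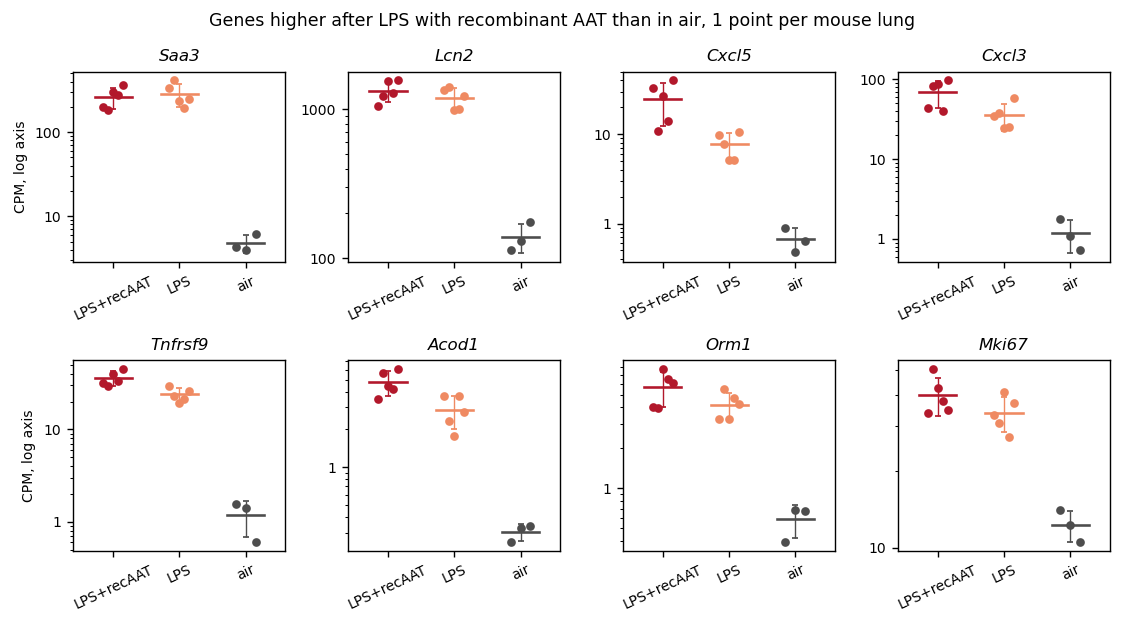
Library-size-scaled counts (CPM, log axis) of 8 genes in each lung of the LPS+recAAT (n = 5), LPS (n = 5) and air (n = 3) groups; points are mice, horizontal lines group means and bars 1 SD. For all 8 genes the LPS+recAAT points lie above the air points without overlap, for Cxcl3 at 40.5 to 96.9 CPM in LPS+recAAT and 0.718 to 1.77 CPM in air. Lack of overlap was a condition for genes chosen by size, and 16.1% of all genes tested met it.

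Acute phase and antimicrobial proteins formed the most abundant group that rose: the summed level of the list was 6821 to 9599 CPM in LPS+recAAT lungs, against 2871 to 3420.2 CPM in air lungs. Of 26 tested genes 16 were higher and the other 10 did not pass, with a median log2 fold change of 1.39; 10 were higher with the set as a term. Saa3, the serum amyloid made in inflamed tissue (chr7:46711998-46715700), had 198, 185, 303, 276 and 362 CPM in LPS+recAAT lungs, against 4.26, 4.02 and 6.16 CPM in air lungs. No air lung came near the LPS+recAAT values. Saa3 rose by 5.79 ± 0.32 (SE, adjusted p = 2.39e-11), and by 5.63 with the set as a term (adjusted p = 3.91e-08). Lcn2, lipocalin 2, which binds the iron carriers of bacteria (chr2:32384633-32388252), had 1058, 1219, 1545, 1274 and 1561 CPM in LPS+recAAT lungs, against 115, 130.0 and 175 CPM in air lungs. Lcn2 rose by 3.25 ± 0.17 (SE, adjusted p = 3.17e-12), and by 3.22 with the set as a term (adjusted p = 1.13e-08). Steap4, a metalloreductase, had 119, 145, 174, 149.7 and 149.6 CPM in LPS+recAAT lungs, against 32.3, 28.3 and 29.1 CPM in air lungs. Steap4 rose by 2.30 ± 0.19 (SE, adjusted p = 1.69e-08), and by 1.80 with the set as a term (adjusted p = 0.000169).

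Pigr, the receptor that carries IgA across epithelium, had 522, 492, 754, 575 and 661 CPM in LPS+recAAT lungs, against 79.7, 142 and 74 CPM in air lungs. That is a rise of 2.61 ± 0.24 (SE, adjusted p = 7.53e-08), and of 2.22 with the set as a term (adjusted p = 0.000405). Serpina3n, a mouse serine protease inhibitor of the family of AAT, had 67.6, 116, 86.2, 96.3 and 82.1 CPM in LPS+recAAT lungs, against 32.2, 33.9 and 33 CPM in air lungs. It rose by 1.44 ± 0.15 (SE, adjusted p = 2.31e-07), and by 1.41 with the set as a term (adjusted p = 0.000522). Serpina3n was the only call among 18 tested serpin genes, where 6.83% of all genes tested passed. Of the mouse genes for AAT itself, Serpina1a had 0.284 ± 0.148 CPM in LPS+recAAT lungs, against 0.329 ± 0.0355 CPM in air lungs and did not pass (log2 fold change -0.12 ± 0.48 (SE, adjusted p = 0.935)). Its close paralogs can share its reads, so this low value is uncertain and does not stand for all mouse AAT genes. The paralogs Orm1 and Orm2, orosomucoids, rose by 3.26 and 3.59, and Saa1 and Saa2 also passed; reads can be shared within each of these near-identical pairs, so their values are uncertain. Saa2 had 0.243, 0.589, 0.373, 0.337 and 0.704 CPM in LPS+recAAT lungs, against 0.0361, 0 and 0 CPM in air lungs.

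Complement genes rose in 11 of 18 cases, with a median log2 fold change of 0.66, but only 2 passed with the set as a term. C3, the central component, had 1127, 1843, 1832, 1759 and 1799.9 CPM in LPS+recAAT lungs, against 823, 747 and 511 CPM in air lungs. LPS+recAAT 6101 was low among its group, and C3 rose by 1.27 ± 0.18 (SE, adjusted p = 3.21e-05) but gave 0.83 with the set as a term (adjusted p = 0.118). Those that passed in both models were C3ar1, the receptor for C3a (1.58 ± 0.14 (SE, adjusted p = 3.95e-08)), and Clu, clusterin, an inhibitor of the terminal pathway (0.82 ± 0.11 (SE, adjusted p = 2.19e-05)). Cfb, factor B, rose by 2.32 ± 0.41 (SE, adjusted p = 0.000502), and gave 1.60 with the set as a term (adjusted p = 0.186). The regulator Cd55 had a log2 fold change of 0.11 and did not pass.

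Genes of a list of itaconate, nitric oxide and prostaglandin enzymes moved in both directions, and the cells that held them were not identified. Acod1, which makes itaconate, had 3.52, 5.66, 4.43, 4.18 and 6.06 CPM in LPS+recAAT lungs, against 0.253, 0.324 and 0.34 CPM in air lungs. The groups stood well apart at a low level, and Acod1 rose by 3.95 ± 0.41 (SE, adjusted p = 2.82e-07), and by 3.81 with the set as a term (adjusted p = 0.000256). Ch25h, cholesterol 25-hydroxylase, had 18.3, 18.7, 21.6, 17.2 and 23.4 CPM in LPS+recAAT lungs, against 2.49, 3.21 and 5.03 CPM in air lungs. Ch25h rose by 2.48 ± 0.25 (SE, adjusted p = 1.9e-07), and by 2.41 with the set as a term (adjusted p = 0.000338). Arg2, the mitochondrial arginase, rose by 1.19 ± 0.11 (SE, adjusted p = 8.65e-08), and by 1.10 with the set as a term (adjusted p = 0.0005). Nos2, the inducible nitric oxide synthase, had 5.39 ± 0.618 CPM in LPS+recAAT lungs, against 10.2 ± 1.62 CPM in air lungs, a fall of 0.92 ± 0.16 (SE, adjusted p = 0.000403) on the log2 scale. Ptges, prostaglandin E synthase, fell by 0.48 ± 0.14 (SE, adjusted p = 0.0301). With the set as a term Nos2 and Ptges had adjusted p-values of 0.127 and 0.253. In all 6 of 13 genes were higher and 2 lower, and with the set as a term 3 were higher and 0 lower. Exons of Ch25h and Arg2 overlap a gene on the other strand.

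Larger rises than those below were seen in predicted genes, which the naming rule leaves out. Among them were Gm26669, at 8.95 without the set and -2.22 with it, and Gm26825, at 8.48 and 2.09. Neither passed with the term. Among the largest rises of genes that the rule names and the lists do not hold was that of Ly6i, a surface protein gene of the Ly6 family. Ly6i had 6.67, 5.69, 9.7, 6.68 and 11.4 CPM in LPS+recAAT lungs, against 0.541, 0.681 and 0.491 CPM in air lungs. It rose by 3.80 ± 0.49 (SE, adjusted p = 1.17e-05) and has close paralogs that can share its reads. Klk10, a secreted kallikrein protease, had 14.6, 11.5, 29.3, 20.2 and 20.7 CPM in LPS+recAAT lungs, against 0.722, 2.59 and 2.12 CPM in air lungs. Klk10 rose by 3.39 ± 0.40 (SE, adjusted p = 4.7e-06), and by 3.22 with the set as a term (adjusted p = 0.00324). Mab21l3 rose by 3.34 ± 0.40 (SE, adjusted p = 2.91e-06), and by 3.49 with the set as a term (adjusted p = 0.000604). Lemd1, whose exons overlap a gene on the other strand, rose by 4.69 ± 0.47 (SE, adjusted p = 2.31e-07).

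Cell division genes rose as a block, with every tested mitotic gene passing. Of 25 mitosis and G2/M genes, all 25 were higher, with a median log2 fold change of 1.49, and 19 were higher with the set as a term (median 1.41). Their summed level was 244 to 302 CPM in LPS+recAAT lungs, against 91.7 to 111 CPM in air lungs. Mki67, the proliferation antigen Ki-67 (chr7:135689784-135716361), had 33.9, 50.4, 42.3, 37.8 and 34.6 CPM in LPS+recAAT lungs, against 14, 12.2 and 10.5 CPM in air lungs. The lowest LPS+recAAT lung was above the highest air lung, and Mki67 rose by 1.70 ± 0.17 (SE, adjusted p = 1.57e-07), and by 1.62 with the set as a term (adjusted p = 0.000433). Bub1b, a kinase of the spindle checkpoint (chr2:118598211-118641591), had 12.5, 16.2, 17.3, 15.7 and 16.6 CPM in LPS+recAAT lungs, against 6.03, 4.51 and 5.59 CPM in air lungs. Bub1b rose by 1.54 ± 0.14 (SE, adjusted p = 4.13e-08), and by 1.33 with the set as a term (adjusted p = 0.000405). Ccna2, cyclin A2, had 13.5, 13.5, 15.6, 12.2 and 15.3 CPM in LPS+recAAT lungs, against 4.83, 3.66 and 3.33 CPM in air lungs. Ccna2 rose by 1.83 ± 0.18 (SE, adjusted p = 1.9e-07), and by 1.68 with the set as a term (adjusted p = 0.000651); its exons overlap a gene on the other strand.

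Of 25 tested DNA replication and G1/S genes, 14 were higher and the others did not pass, with a median log2 fold change of 0.51; 9 were called without air 2102, and 4 with the set as a term. Rrm2, the small subunit of ribonucleotide reductase, had 14.4, 16.3, 16.3, 15.2 and 17.5 CPM in LPS+recAAT lungs, against 6.42, 5.68 and 5.48 CPM in air lungs. Rrm2 rose by 1.45 ± 0.14 (SE, adjusted p = 1.3e-07), and by 1.22 with the set as a term (adjusted p = 0.00107). Uhrf1, which guides maintenance of DNA methylation, rose by 1.28 ± 0.14 (SE, adjusted p = 7.15e-07), and Tk1, thymidine kinase, by 1.40 ± 0.19 (SE, adjusted p = 1.36e-05). The replicative helicase subunit Mcm2 had a log2 fold change of 0.33 ± 0.11 (SE, adjusted p = 0.0931), and Pcna, the replication clamp, 0.24 ± 0.10 (SE, adjusted p = 0.18); neither passed. Myeloid and epithelial cells can both divide in the lung, and which cells held these transcripts was not measured.

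Promoters of Mki67 and Bub1b are shown since mitotic genes moved together. They are RefSeq (GRCm38.p6) sequences of the 250 bases before the start, 5′ to 3′ on the strand of the gene, with CCAAT and TTTGAA, each on either strand, in capitals. TTTGAA is the core of an element known from promoters of mitotic genes. Mki67 lies at chr7:135716380-135716629, minus strand, and Bub1b at chr2:118597961-118598210, plus strand.
Mki67: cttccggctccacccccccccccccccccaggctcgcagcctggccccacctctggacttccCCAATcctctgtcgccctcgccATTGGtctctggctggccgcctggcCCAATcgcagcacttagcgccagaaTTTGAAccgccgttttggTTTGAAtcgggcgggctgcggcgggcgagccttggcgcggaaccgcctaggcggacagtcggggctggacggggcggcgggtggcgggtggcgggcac
Bub1b: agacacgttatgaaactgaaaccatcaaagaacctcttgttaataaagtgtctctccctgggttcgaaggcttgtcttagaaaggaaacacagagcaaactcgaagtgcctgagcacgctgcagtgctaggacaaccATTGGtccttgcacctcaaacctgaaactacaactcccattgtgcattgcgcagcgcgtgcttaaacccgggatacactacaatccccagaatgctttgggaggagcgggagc

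Mki67 holds CCAAT letters 188, 166 and 141 bases before the start and TTTGAA letters at 116 and 98 bases, and Bub1b holds CCAAT at 113 bases. CCAAT was found in 16 and TTTGAA in 7 of 20 matched promoters of mitotic genes that passed, against 33.8% and 16% of 32851 promoters of the same length. Ccna2 had no entry.

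Of single genes that fell and passed in both models, Klf2, a transcription factor of quiescent endothelium and lymphocytes (chr8:72319033-72321656), had 44.8, 51.3, 65.8, 65.6 and 54.1 CPM in LPS+recAAT lungs, against 129, 149 and 169.9 CPM in air lungs. No LPS+recAAT lung reached the lowest air lung. Klf2 fell by 1.41 ± 0.18 (SE, adjusted p = 5.94e-06) on the log2 scale, and the value was -1.56 with the set as a term (adjusted p = 0.00421). Tmem252, a membrane protein gene, had 18.5, 14.9, 27.5, 26.4 and 20.7 CPM in LPS+recAAT lungs, against 51.9, 59.3 and 75.7 CPM in air lungs. Tmem252 fell by 1.54 ± 0.22 (SE, adjusted p = 4.17e-05); the value was -2.02 with the set as a term (adjusted p = 0.00208). Errfi1, which encodes MIG6, a feedback inhibitor of the EGF receptor, had 83.4, 133, 126, 109 and 81.5 CPM in LPS+recAAT lungs, against 208, 282 and 296 CPM in air lungs. Errfi1 fell by 1.30 ± 0.17 (SE, adjusted p = 1.36e-05); the value was -1.52 with the set as a term (adjusted p = 0.00364). Areg, amphiregulin, a ligand of the same receptor, had 1.79, 1.05, 1.82, 1.21 and 0.875 CPM in LPS+recAAT lungs, against 7.11, 3.08 and 3.7 CPM in air lungs. At these low levels Areg fell by 1.78 ± 0.33 (SE, adjusted p = 0.000753); the value was -2.20 with the set as a term (adjusted p = 0.0318).

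Kcnj2, an inward rectifier potassium channel, fell by 1.28 ± 0.20 (SE, adjusted p = 0.000143), and Acoxl, an acyl-CoA oxidase-like gene, by 1.27 ± 0.19 (SE, adjusted p = 4.77e-05); both passed with the set as a term (0.000512 and 0.0463). Among falls of genes with an average log2 CPM of 1 or more, a known gene symbol and no overlap between groups, Mfsd2a, a transporter of lysolipids, had the largest. Mfsd2a had 2.21, 1.08, 1.17, 2.16 and 1.28 CPM in LPS+recAAT lungs, against 7.4, 9.05 and 7.37 CPM in air lungs. It fell by 2.34 ± 0.35 (SE, adjusted p = 5.36e-05), and gave -1.81 with the set as a term (adjusted p = 0.144). Bex2 fell by 1.39 ± 0.26 (SE, adjusted p = 0.00101) without passing with the term (0.237). Aspg, an asparaginase, fell by 1.34 ± 0.39 (SE, adjusted p = 0.0353), a call lost with the term (0.517) and without LPS+recAAT 6102, 6103, 6104 or 6105 or air 2102 or 2105 (adjusted p 0.0516 to 0.229).

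Of 21 immediate early genes, 5 were lower and 2 higher, where 2.62% of all genes tested were lower and 4.21% higher. With the set as a term 2 of the list were lower and 1 higher. Csrnp1, a nuclear protein induced by AXIN1, had 14.4, 20.4, 23.2, 22.9 and 14.9 CPM in LPS+recAAT lungs, against 36, 66.5 and 65.4 CPM in air lungs. Csrnp1 fell by 1.56 ± 0.23 (SE, adjusted p = 7.92e-05); the value was -1.92 with the set as a term (adjusted p = 0.00914). Nr4a1, the orphan nuclear receptor Nur77, had 24.7, 15.4, 20.2, 21.3 and 24.2 CPM in LPS+recAAT lungs, against 96.9, 50.9 and 44.7 CPM in air lungs. The 3 air lungs varied widely, and all lay above the LPS+recAAT lungs. Nr4a1 fell by 1.60 ± 0.25 (SE, adjusted p = 0.000122), and gave -1.18 with the set as a term (adjusted p = 0.174). Zfp36, which encodes tristetraprolin, a protein that speeds decay of cytokine mRNAs, fell by 1.17 ± 0.16 (SE, adjusted p = 1.46e-05) and gave -0.72 with the set as a term (adjusted p = 0.145). Dusp1, a phosphatase that switches off MAP kinases, fell by 1.07 ± 0.16 (SE, adjusted p = 9.24e-05) and gave -0.85 with the set as a term (adjusted p = 0.138). Fos, Jun and Egr1 had log2 fold changes of -0.37, -0.09 and -0.34 and did not pass. The 2 that were higher were Egr2 (0.76 ± 0.23 (SE, adjusted p = 0.0488)) and Myc (0.64 ± 0.15 (SE, adjusted p = 0.00626)). Leaving out genes that overlap the other strand, which removes Csrnp1, Zfp36 and Dusp1, left 4 calls in the list.

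**Figure D3:**
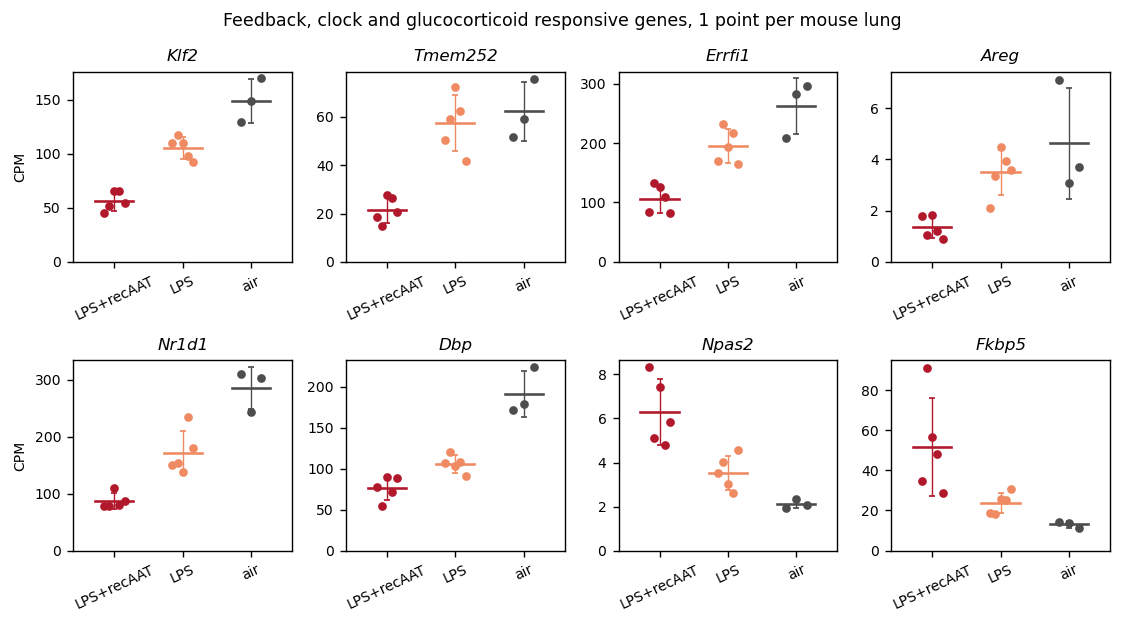
CPM (linear axis from 0) of 8 genes in each lung of the LPS+recAAT (n = 5), LPS (n = 5) and air (n = 3) groups; points are mice, horizontal lines group means and bars 1 SD. Klf2, Tmem252, Errfi1, Areg, Nr1d1 and Dbp are lower in every LPS+recAAT lung than in any air lung, and Npas2 and Fkbp5 higher in every one. Lack of overlap was a condition for genes chosen by size, and 16.1% of all genes tested met it.

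Clock genes moved in both directions. The core clock is a loop in which Arntl, Clock and Npas2 activate Per, Cry, Nr1d1 and Dbp, and Nr1d1 in turn represses Arntl and Npas2. Of 18 clock genes, 5 were higher and 4 lower, where 4.21% of all genes tested were higher and 2.62% lower. In all 5 of the list were called without air 2102, and 5 without genes that overlap the other strand. With the set as a term 1 was higher and 2 lower. Nr1d1, the repressor REV-ERB alpha, had 78.3, 78.1, 111, 79.7 and 87.2 CPM in LPS+recAAT lungs, against 309, 244 and 303 CPM in air lungs. Nr1d1 fell by 1.72 ± 0.18 (SE, adjusted p = 4.88e-07); the value was -1.25 with the set as a term (adjusted p = 0.0148). Dbp, a transcription factor driven by the clock, had 77.8, 54.5, 89.8, 71.2 and 89.1 CPM in LPS+recAAT lungs, against 172, 179.5 and 224 CPM in air lungs. Dbp fell by 1.33 ± 0.19 (SE, adjusted p = 3.04e-05), and gave -0.75 with the set as a term (adjusted p = 0.193). Npas2, a partner of Arntl, had 8.32, 5.13, 7.42, 4.79 and 5.83 CPM in LPS+recAAT lungs, against 1.95, 2.34 and 2.08 CPM in air lungs. Npas2 rose by 1.57 ± 0.26 (SE, adjusted p = 0.000201), and by 1.57 with the set as a term (adjusted p = 0.0394). Arntl, which encodes BMAL1, rose by 0.79 ± 0.18 (SE, adjusted p = 0.00519), and Cry1 by 1 ± 0.19 (SE, adjusted p = 0.000945); their adjusted p-values with the term were 0.366 and 0.56. Per2 had a log2 fold change of 0.48 ± 0.21 (SE, adjusted p = 0.199). The time of day at which lungs were taken is not given in the sources used here, and its part in these values was not tested. Exons of Nr1d1 and Dbp overlap a gene on the other strand.

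Genes that respond to glucocorticoids, the adrenal stress hormones, also split: 5 of 15 were higher and 4 lower. Over all genes tested 4.21% were higher and 2.62% lower. In all 5 of the list were called without air 2105, and 2 with the set as a term, both lower. Fkbp5, a chaperone of the glucocorticoid receptor, had 34.7, 90.9, 56.6, 48.2 and 28.8 CPM in LPS+recAAT lungs, against 14.4, 13.8 and 11.1 CPM in air lungs. Fkbp5 rose by 1.98 ± 0.33 (SE, adjusted p = 0.000392), and gave 1.19 with the set as a term (adjusted p = 0.232). Zbtb16, the transcription factor PLZF, had 93.9, 218, 43, 116 and 30.2 CPM in LPS+recAAT lungs, against 10.4, 8.5 and 7.86 CPM in air lungs. The LPS+recAAT lungs spread widely, with 6102 the highest. Zbtb16 rose by 3.49 ± 0.79 (SE, adjusted p = 0.00857), but gave 2.15 with the set as a term (adjusted p = 0.366), and did not pass without air 2105 (adjusted p = 0.0524). Per1, a clock gene that glucocorticoids induce, had 90.5, 155, 170.1, 158 and 92.1 CPM in LPS+recAAT lungs, against 205, 271 and 184 CPM in air lungs. Per1 fell by 0.73 ± 0.21 (SE, adjusted p = 0.0346) and gave -1.28 with the set as a term (adjusted p = 0.0408); the call was lost without LPS+recAAT 6101 or 6105 or air 2101 or 2102 (adjusted p 0.0744 to 0.229). Tsc22d3, which encodes the glucocorticoid induced protein GILZ, had a log2 fold change of -0.28 ± 0.24 (SE, adjusted p = 0.612).

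Marker genes were counted for the cell types of the lung. These are bulk samples, so more cells of a type and more RNA per cell cannot be told apart. Over all genes tested 4.21% were higher and 2.62% lower. Of 22 tested neutrophil markers, 4 were higher and 1 lower, and their summed level was 492 to 753 CPM in LPS+recAAT lungs, against 448 to 527 CPM in air lungs. S100a8, an abundant neutrophil protein, had 37.6, 28.8, 27.2, 43.4 and 61.8 CPM in LPS+recAAT lungs, against 23.7, 39.9 and 29.5 CPM in air lungs. The groups overlapped (log2 fold change 0.36 ± 0.37 (SE, adjusted p = 0.697)). Those higher were Il1r2, a decoy receptor for interleukin 1 (2.48 ± 0.35 (SE, adjusted p = 2.43e-05)), Clec4d, a C-type lectin (1.37 ± 0.14 (SE, adjusted p = 2.52e-07)), Fpr2, a formyl peptide receptor (0.93 ± 0.14 (SE, adjusted p = 4.58e-05)), and Mcemp1 (0.57 ± 0.14 (SE, adjusted p = 0.0119)); the first 3 passed with the set as a term, and the cells that held them were not identified. Hdc, histidine decarboxylase, was the lower one (-0.64 ± 0.16 (SE, adjusted p = 0.0102)), and gave -0.34 with the set as a term (adjusted p = 0.556). The granule genes Mpo and Elane were not tested, as too few reads were counted.

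Alveolar macrophage markers split, 7 of 17 higher and 3 lower, with a summed level of 982 to 1496 CPM in LPS+recAAT lungs, against 922 to 1029 CPM in air lungs. Over all genes tested 4.21% were higher and 2.62% lower. With the set as a term 3 of these markers were higher and 0 lower. Ctsk, cathepsin K, had 65.9, 85.5, 92.4, 82.2 and 85.2 CPM in LPS+recAAT lungs, against 24.4, 25.6 and 28.3 CPM in air lungs. Ctsk rose by 1.66 ± 0.14 (SE, adjusted p = 9.17e-09), and by 1.39 with the set as a term (adjusted p = 0.000133). Itgax, which encodes CD11c, rose by 0.91 ± 0.12 (SE, adjusted p = 2e-05) and passed with the term. Marco, a scavenger receptor, had 4.97, 7.16, 10.9, 7.83 and 7.77 CPM in LPS+recAAT lungs, against 2.96, 1.78 and 1.59 CPM in air lungs. Marco rose by 1.86 ± 0.32 (SE, adjusted p = 0.000327), and gave 1.35 with the set as a term (adjusted p = 0.158). Siglecf, Ear2 and Fabp1 fell by 0.68 ± 0.15 (SE, adjusted p = 0.00575), 0.75 ± 0.17 (SE, adjusted p = 0.00566) and 0.89 ± 0.19 (SE, adjusted p = 0.00311). Their adjusted p-values with the term were 0.195, 0.339 and 0.214. Car4 rose by 0.54 ± 0.11 (SE, adjusted p = 0.0015) and is also a marker of capillary endothelium. Of 21 monocyte and interstitial macrophage markers 6 were higher, with a summed level of 1580.1 to 2002 CPM in LPS+recAAT lungs, against 1492 to 1742 CPM in air lungs. With the set as a term 1 was higher. Ms4a7 rose by 1.18 ± 0.15 (SE, adjusted p = 1.1e-05) and passed with the term, whereas C1qc (0.81 ± 0.13 (SE, adjusted p = 0.000135)) and Adgre1, which encodes F4/80 (0.95 ± 0.17 (SE, adjusted p = 0.000392)), did not. Ccr2 and Ly6c2, markers of inflammatory monocytes, had log2 fold changes of 0.27 and -0.02 and did not pass. The 2 calls among 14 dendritic cell markers were the chemokines Ccl17 and Ccl22. How far macrophage numbers contributed to the chemokine and complement rises was not tested.

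Epithelial markers moved in both directions. Of 14 alveolar type 2 markers 2 were higher and 3 lower, where 4.21% of all genes tested were higher and 2.62% lower. Without air 2101, 3 were called in all. With the set as a term 1 was higher and 0 lower. Sftpd, surfactant protein D, a collectin that binds bacteria, had 1785, 2065, 2175, 2020.0 and 2342 CPM in LPS+recAAT lungs, against 1098, 897 and 1236 CPM in air lungs. Sftpd rose by 0.95 ± 0.11 (SE, adjusted p = 3.21e-06), and by 0.83 with the set as a term (adjusted p = 0.0121). Sftpc overlapped between the groups (log2 fold change -0.20 ± 0.14 (SE, adjusted p = 0.523)). Etv5 and Lpcat1 fell by 0.39 ± 0.09 (SE, adjusted p = 0.00575) and 0.46 ± 0.10 (SE, adjusted p = 0.00584) and did not pass with the term; the Etv5 call was lost without air 2101 (adjusted p = 0.0617). Among 15 club and secretory airway markers, Pigr and Muc1 (0.53 ± 0.11 (SE, adjusted p = 0.00261)) were higher and Cyp2f2 lower (-0.60 ± 0.15 (SE, adjusted p = 0.011)). The club cell secretoglobin Scgb1a1 had a log2 fold change of -0.07 ± 0.19 (SE, adjusted p = 0.907). The Cyp2f2 call was lost without air 2102 (adjusted p = 0.12) and, like that of Muc1, with the term (0.263 and 0.0551). Igfbp2 was the 1 lower call among 12 alveolar type 1 markers (-0.93 ± 0.26 (SE, adjusted p = 0.0301)), lost with the term and without LPS+recAAT 6101, 6102, 6103 or 6104 or air 2102 or 2105 (adjusted p 0.0512 to 0.183). Pdgfrb and Fbln5 were the 2 lower calls among 22 fibroblast and matrix genes (-0.63 ± 0.16 (SE, adjusted p = 0.0174) and -0.49 ± 0.13 (SE, adjusted p = 0.0187)). Both were lost with the term; Pdgfrb was lost without LPS+recAAT 6101 or 6104 or air 2101 or 2102 (adjusted p 0.054 to 0.128), and Fbln5 without LPS+recAAT 6101 or 6104 or air 2101 or 2105 (adjusted p 0.0619 to 0.0862).

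In 7 lists of other cells no member passed edgeR's quasi-likelihood test without the set. For each, the numbers give the members tested, then those at an unadjusted p under 0.05, those called by DESeq2 and those called by limma voom: T and NK cell markers (20 tested; 0, 0 and 0), mast cell and basophil markers (9 tested; 0, 0 and 0), ciliated cell markers (13 tested; 2, 0 and 0), smooth muscle and pericyte markers (11 tested; 1, 0 and 1), heart muscle markers (9 tested; 0, 0 and 0), B and plasma cell markers (15 tested; 4, 1 and 1) and endothelial adhesion molecules (11 tested; 5, 0 and 3). With the set as a term, 1 B and plasma cell marker passed, Fcer2a, the B cell receptor CD23, at a log2 fold change of 1.09 (adjusted p = 0.0318), against 0.39 ± 0.21 (SE, adjusted p = 0.322) without it. The median log2 fold change of that list turned with the set, at -0.37 without the term and 0.44 with it, and that of mast cell and basophil markers was -0.11 and 0.02. Without the term 1 of the 15 B and plasma cell markers had a positive log2 fold change. Lower calls of B lineage genes outside the list included Cxcr5 (-0.83, adjusted p = 0.0109) and Ighg2b (-1.56, adjusted p = 0.00805). Neither passed with the term (0.522 and 0.344). Genes outside the lists were not counted by cell type. Leaving out LPS+recAAT 6101 gave 1 call among B and plasma cell markers and 1 among adhesion molecules. Car4 was the 1 call among 18 endothelial markers, where 6.83% of all genes tested passed. In the liver list Apoa2 was lower (adjusted p = 0.0299), at 0.0485, 0.0327, 0.0467, 0 and 0.128 CPM in LPS+recAAT lungs, against 0.0361, 0.649 and 1.97 CPM in air lungs; these are few reads, air 2105 was the highest, and the call was lost with the term and without LPS+recAAT 6101, 6102, 6103 or 6104 or air 2102 or 2105 (adjusted p 0.051 to 0.323). Pf4 was the 1 call among 11 erythroid and platelet markers.

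Type I interferon stimulated genes rose in 7 of 24 cases, where 4.21% of all genes tested were higher, and in 4 without air 2101; the others did not pass. The median log2 fold change of the list was 0.49. With the set as a term edgeR called 0, with 7 at an unadjusted p under 0.05. Isg15, a ubiquitin-like protein, rose by 1.41 ± 0.27 (SE, adjusted p = 0.00121) without the term and gave 1.13 with the set as a term (adjusted p = 0.201). Ifit1, which binds viral RNA, rose by 1.33 ± 0.26 (SE, adjusted p = 0.00144) and gave 0.83 with the set as a term (adjusted p = 0.331). Rsad2, the antiviral enzyme viperin, rose by 1.12 ± 0.22 (SE, adjusted p = 0.00128) and gave 0.68 with the set as a term (adjusted p = 0.336). Of 15 genes induced by interferon gamma, Tgtp1 rose (1.29 ± 0.27 (SE, adjusted p = 0.00254)), a GTPase with a near-identical copy in Tgtp2, so its counts are uncertain; it did not pass with the term. Tapbp and Psmb8, of antigen processing, were the 2 calls among 16 MHC genes (0.39 ± 0.10 (SE, adjusted p = 0.0144) and 0.43 ± 0.13 (SE, adjusted p = 0.0411)). Both have exons that overlap the other strand and were lost with the term, Tapbp also without air 2102 or 2105 (adjusted p 0.0621 to 0.0892), and Psmb8 without LPS+recAAT 6103 or 6105 or air 2101 or 2102 (adjusted p 0.058 to 0.257). Ifng was not tested, as too few reads were counted.

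Proteases and their inhibitors were higher in 5 of 17 cases, where 4.21% of all genes tested were higher. With the set as a term 1 of the list was higher. Timp1, an inhibitor of metalloproteinases, had 10.6, 11.3, 11.1, 12.5 and 16.4 CPM in LPS+recAAT lungs, against 4.76, 4.51 and 6.16 CPM in air lungs. Timp1 rose by 1.27 ± 0.17 (SE, adjusted p = 1.89e-05), and by 1.24 with the set as a term (adjusted p = 0.0114). Mmp12, the macrophage elastase, had 14.9, 19.4, 21, 12.8 and 23.8 CPM in LPS+recAAT lungs, against 3.93, 5.58 and 7.11 CPM in air lungs. Mmp12 rose by 1.74 ± 0.26 (SE, adjusted p = 5.5e-05), and gave 1.15 with the set as a term (adjusted p = 0.115). Mmp19 rose by 0.98 ± 0.16 (SE, adjusted p = 0.000241), and gave 0.86 with the set as a term (adjusted p = 0.0945). Slpi, an inhibitor of neutrophil elastase made by airway epithelium, rose by 0.67 ± 0.14 (SE, adjusted p = 0.00248), and gave 0.76 with the set as a term (adjusted p = 0.0774). Exons of Mmp12 and Mmp19 overlap a gene on the other strand.

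Metabolic lists held mostly small changes. Of 20 cholesterol and fatty acid synthesis genes 6 were lower and 1 higher, with a median log2 fold change of -0.20. Over all genes tested 2.62% were lower and 4.21% higher. With the set as a term 2 of the list were lower and 0 higher. In all 4 were called without LPS+recAAT 6104, 2 without air 2101 and 2 without air 2105. Sqle, squalene epoxidase, fell by 0.42 ± 0.10 (SE, adjusted p = 0.00797), and Fdft1, squalene synthase, by 0.52 ± 0.12 (SE, adjusted p = 0.00882). Both calls were lost with the term, Sqle also without air 2105 (adjusted p = 0.067), and Fdft1 without air 2105 (adjusted p = 0.0762). Of 20 xenobiotic genes 4 were lower, and 1 was lower with the set as a term. Without LPS+recAAT 6101, 6102 or 6103, 2 were called, with 1 without air 2102 and 2 without air 2105. Aox3, an aldehyde oxidase, had 133, 143, 122, 109.6 and 108 CPM in LPS+recAAT lungs, against 191, 219 and 198 CPM in air lungs. Aox3 fell by 0.72 ± 0.13 (SE, adjusted p = 0.00086); the value was -1.04 with the set as a term (adjusted p = 0.00584). Gstm1 fell by 0.38 ± 0.11 (SE, adjusted p = 0.0327), lost with the term and without LPS+recAAT 6101, 6102, 6103 or 6104 or air 2101, 2102 or 2105 (adjusted p 0.059 to 0.116).

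Of 19 oxidative stress genes 5 were higher and 1 lower, 3 in all without air 2101. Over all genes tested 4.21% were higher and 2.62% lower. With the set as a term 0 of the list were higher and 1 lower. Cat, catalase, had 309, 367, 389, 327 and 363 CPM in LPS+recAAT lungs, against 502, 538 and 586 CPM in air lungs. Cat fell by 0.63 ± 0.10 (SE, adjusted p = 0.00014); the value was -0.83 with the set as a term (adjusted p = 0.00364). Sod2, the mitochondrial superoxide dismutase, rose by 0.76 ± 0.12 (SE, adjusted p = 0.000115), and gave 0.51 with the set as a term (adjusted p = 0.171). Slc7a11, a cystine transporter, rose by 1.39 ± 0.23 (SE, adjusted p = 0.000183), and gave 0.91 with the set as a term (adjusted p = 0.186). Cryab was the 1 lower call among 15 chaperone genes (-0.40 ± 0.12 (SE, adjusted p = 0.0422)), lost with the term and without LPS+recAAT 6101, 6102, 6103 or 6104 or air 2101 or 2105 (adjusted p 0.0654 to 0.246). In 3 further lists no member passed edgeR's test. Members tested, at an unadjusted p under 0.05, called by DESeq2 and called by voom numbered 20, 0, 0 and 7 for ribosomal proteins, 20, 0, 0 and 1 for oxidative phosphorylation, and 12, 2, 0 and 0 for long noncoding RNAs. The median log2 fold change of the noncoding RNAs was -0.17 without the set and 0.39 with it. Leaving out air 2105 gave 2 calls among ribosomal proteins and 1 in oxidative phosphorylation.

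**Figure D4:**
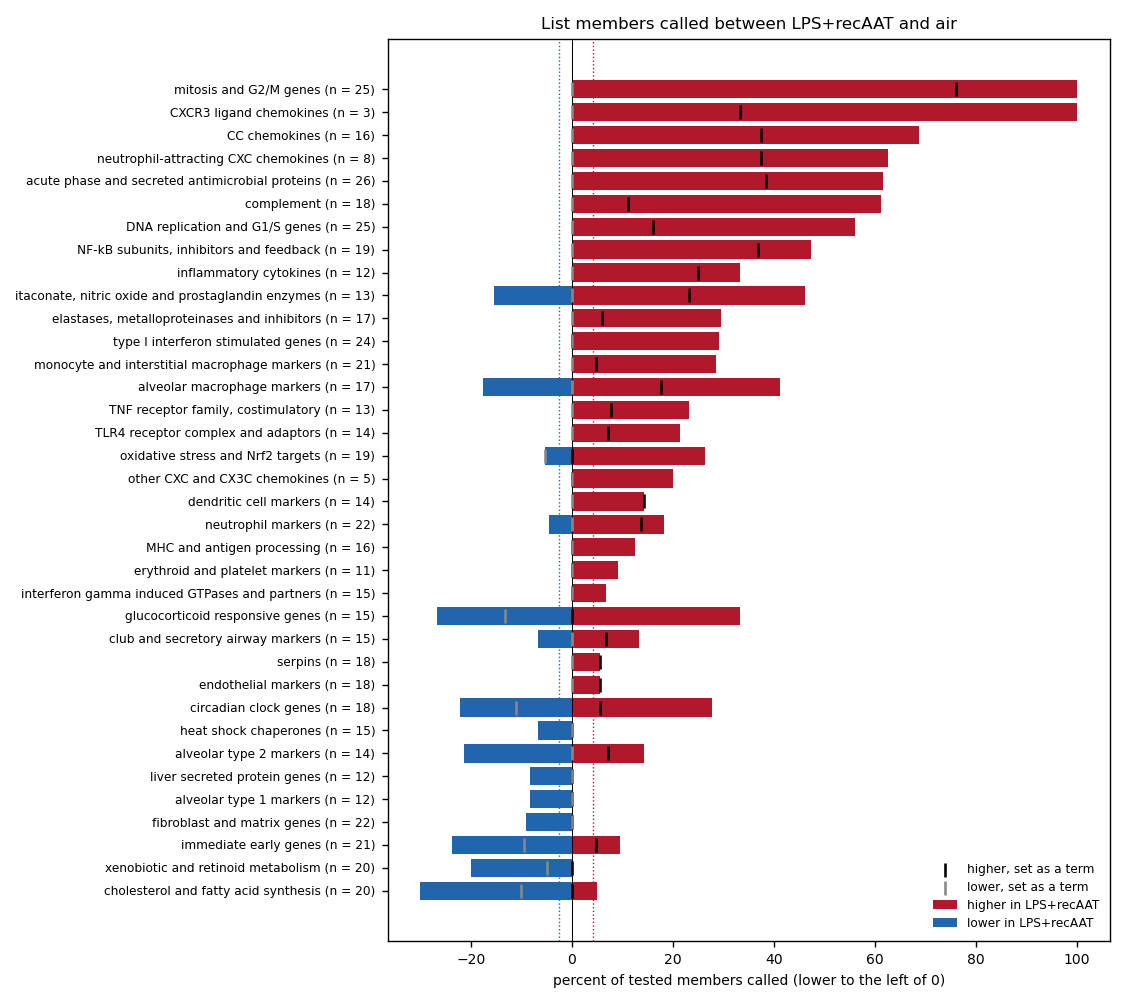
Percent of tested members of each gene list that passed between LPS+recAAT and air, higher in red to the right and lower in blue to the left of 0; n is the number tested and the 10 lists with no call are left out. Dotted lines mark the shares over all genes (4.21% higher, 2.62% lower), and black and grey ticks the shares with the library set as a term. Mitosis, CXCR3 ligands and CC chemokines reach furthest to the right, cholesterol synthesis and glucocorticoid responsive genes furthest to the left.

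The same genes are set beside mice given LPS without AAT. Both comparisons use the 3 air libraries, so their values are not independent, and the LPS libraries are all in the low-ratio set. The comparison of LPS+recAAT with LPS uses the same 5 LPS+recAAT libraries whose values against air served to name genes. Its p-values are therefore not independent of that choice. Between LPS and air, 753 genes (4.39%) passed, 465 higher (2.71%) and 288 lower (1.68%). In that comparison 23 of 25 mitosis and G2/M genes, 15 of 26 acute phase genes and 11 of 16 CC chemokines were higher. Of 18 clock genes, 1 was higher and 3 lower. The rises of these lists were thus shared with LPS lungs. Saa3 had 198, 185, 303, 276 and 362 CPM in LPS+recAAT lungs and 339, 414, 234, 196 and 248 CPM in LPS lungs. The 2 groups overlapped, and Saa3 differed between them by -0.11 ± 0.20 (SE, adjusted p = 0.798) on the log2 scale. Cxcl5 had 32.7, 10.8, 27.1, 13.9 and 40.2 CPM in LPS+recAAT lungs and 9.74, 7.76, 5.19, 5.2 and 10.6 CPM in LPS lungs. Every LPS+recAAT value was the higher, by 1.71 ± 0.33 (SE, adjusted p = 0.00289). Mki67 had 33.9, 50.4, 42.3, 37.8 and 34.6 CPM in LPS+recAAT lungs and 33.1, 30.9, 41, 27.2 and 37.1 CPM in LPS lungs, which overlap (0.23 ± 0.13 (SE, adjusted p = 0.294)).

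For the 5 falling genes set beside LPS here, the mean of the LPS lungs lay between those of LPS+recAAT and air. These genes were named for their falls against air, so their p-values against LPS are not a separate test. Klf2 had 44.8, 51.3, 65.8, 65.6 and 54.1 CPM in LPS+recAAT lungs and 109.8, 117, 110.2, 98.4 and 92 CPM in LPS lungs. Against air the LPS lungs differed by -0.50 ± 0.18 (SE, adjusted p = 0.113), and LPS+recAAT differed from LPS by -0.91 ± 0.16 (SE, adjusted p = 0.00111). Tmem252 had 18.5, 14.9, 27.5, 26.4 and 20.7 CPM in LPS+recAAT lungs and 50.6, 59.3, 72.5, 62.5 and 41.9 CPM in LPS lungs. Its LPS lungs differed from air by -0.12 ± 0.22 (SE, adjusted p = 0.833), and LPS+recAAT from LPS by -1.42 ± 0.20 (SE, adjusted p = 0.000338). Errfi1 and Csrnp1 differed between LPS and air by -0.42 ± 0.17 (SE, adjusted p = 0.188) and -0.25 ± 0.23 (SE, adjusted p = 0.633), and between LPS+recAAT and LPS by -0.88 ± 0.15 (SE, adjusted p = 0.00118) and -1.31 ± 0.21 (SE, adjusted p = 0.000832). Nr1d1 differed between LPS and air by -0.74 ± 0.18 (SE, adjusted p = 0.0177), and between LPS+recAAT and LPS by -0.98 ± 0.16 (SE, adjusted p = 0.000848). In all, 1456 genes (8.49%) passed between LPS+recAAT and LPS without the set, 1110 higher (6.47%) and 346 lower (2.02%). With the set as a term edgeR called 0, with 1261 at an unadjusted p under 0.05, so no gene above is shown to differ between LPS+recAAT and LPS apart from the library set.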

How the data were processed

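RNA was sequenced from whole lung, 1 library per mouse. The kit was strand-specific and selected poly(A) RNA, per the labels. Raw counts for Ensembl genes, not normalized by the authors, were deposited as 1 table. The submitters' processing notes name HTSeq 0.11.1 and STAR 2.4.0.1, Trimmomatic 0.36 and 0.38 and FastQC 0.11.8, and build GRCm38. Whether counting used strand, and which annotation it used, is not given in the sources used here. Besides 41388 genes the table has 5 summary lines that were not used. GENCODE release M21 (GRCm38) named 40254 genes; 1134 had no symbol. The list genes Gbp5, Gbp6, Gbp10 and Dnai1 were not analysed here.

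Counts were tested with the two-sided quasi-likelihood F test of edgeR 4.0.16 (R 4.3.3) over all 23 libraries with 1 mean per group, TMM scaling, filterByExpr, robust dispersions and Benjamini-Hochberg adjustment over 17148 genes. All groups shared 1 estimate of the spread, as air has 3 libraries. SE is the log2 fold change divided by the root of F. CPM are TMM-scaled. Spread between these mice is what the p-values measure. Values carry counting error, which is largest for genes of a few CPM, and LPS+recAAT 6104 was the shallowest library. Alternatives were DESeq2 1.42.0 (size factors, and its Wald test), limma 3.58.1 voom with quality weights, library totals as the scaling, any gene with at least 1 count, a minimum of 1 CPM in 3 libraries, dispersions that were not robust, an adjusted p under 0.01, a block by the final digit of each mouse number, the library set (mt-Nd6 over or under 2% of mt-Nd5) as a term, a GC offset (lowess, span 0.3) with and without the set, the 8 libraries alone, leaving out each library, and leaving out genes whose exons overlap the other strand. The libraries left out were those of LPS+recAAT and air. Leaving out libraries in the model with the set, LPS+oxAAT among them, was added after seeing the data. The scripts were tested on simulated data.

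The text names, in each direction, the 10 genes that changed most among those that passed, had an average log2 CPM of 1 or more, did not overlap in CPM between groups and carry the symbol of a known gene; the 6 largest per direction that also passed with the set as a term and overlap no exon of the other strand; for each list, the 3 called members whose adjusted p was smallest (fewer where fewer passed); and a panel of inflammatory and tissue genes. Other list members, most of which did not pass, were chosen after their values were seen. Some genes that the rule chose are not reported here. The groups compared, the panel and the 46 gene lists were chosen with earlier results of these data known. Among genes named here, exons of Cxcl10, Cxcl11, Cxcl16, Csf2, Il1b, Nfkb2, Myd88, Tnfsf9, Cd55, Ch25h, Arg2, Lemd1, Ccna2, Tk1, Csrnp1, Zfp36, Dusp1, Jun, Nr1d1, Dbp, Arntl, Mpo, Cyp2f2, Tapbp, Psmb8, Mmp12, Mmp19, Fdft1 and Cryab overlap a gene on the other strand, so reads of the 2 cannot be told apart where the counting did not use strand.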

Additional observations from a re-analysis of the deposited data

Results flagged for a closer look

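In 7 of 108 genes chosen by the naming rule, the highest or lowest of the 5 LPS+recAAT lungs lay apart from the other 4, its gap to the nearest taking more than 0.71 of the range of the group (the 95% critical value for 5 samples). Chance flags about 1 in 20. In Il1b the gap was 0.915 of the range, with replicate 6105 at 103 CPM and the next highest lung at 54.8 CPM. Replicate 6105 was also the highest for Sftpc, at 16525 CPM with the next at 12246 CPM (gap 0.892). Replicate 6101 was the lowest for C3, at 1127 CPM with the next at 1759 CPM (gap 0.883), and for Sod2, at 123 and 149.6 CPM (gap 0.752). It was the highest for Birc3, at 88.2 and 81.2 CPM (gap 0.82). Replicate 6102 was the highest for Etv5, at 238 and 199 CPM (gap 0.824), and replicate 6103 for Nr1d1, at 111 and 87.2 CPM (gap 0.719). Of these genes, the Etv5 call alone was lost when a library was left out, and that library was air 2101. Replicate 6101 also had the highest share of reads on no annotated feature, 13.1%; its part in these values was not tested.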

How the results depend on the processing

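The number of genes that passed between LPS+recAAT and air, 1171 (722 higher, 449 lower), was 634 (441 higher, 193 lower) at an adjusted p under 0.01, 2310 (1294 higher, 1016 lower) with voom, 278 (222 higher, 56 lower) with the library set as a term and 288 (194 higher, 94 lower) with a GC offset and the set. The cause was not tested; higher genes made up 61.7% of calls without the set and 79.9% with it. With the GC offset alone it was 1346 (755 higher, 591 lower). Leaving out each library gave 762 to 1055 calls, 495 to 694 higher and 243 to 389 lower, and 134 to 301 with the set as a term. A replicate block by the final digit of each mouse number gave 1263 (765 higher, 498 lower). Deviations of lungs that share a digit correlated at 0.17, -0.08 and 0.13, and those of lungs with different digits at -0.31 to 0.26. With so few pairs this check cannot decide whether the digits pair the mice. Of 108 genes chosen by the naming rule, 103 passed, 57 of them with the set as a term. Without the set, 82 kept the call whichever LPS+recAAT or air library was left out. Direction turned only in genes that did not pass. The log2 fold change of Il6 was 0.84 with GC and set, 0.73 with the set, 0.13 with the block, 0.058 with voom, 0.0017 with no such filter and -0.17 to 0.33 leaving out libraries. That of Sftpc was -0.32 to 0.0051 and that of Scgb1a1 -0.21 to 0.0399 when libraries were left out. Depth limits genes of a few reads, such as Cxcl11, Apoa2 and Il6.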
